A study of Drosophila melanogaster with 2 samples.

Results

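The peaks described here lay inside the introns of shorter protein-coding genes. A peak belonged to this set when its summit on a main chromosome arm was more than 500 bp from every protein-coding transcription start site (TSS), lay in the body of a protein-coding gene and in no exon of one, and when the longest gene around it spanned less than 30 kb. Of the 2772 arm peaks in the authors' optimal list, 526 (19.0%) met this rule, and they are called short-gene intron peaks below. The other arm peaks were 1223 promoter peaks (summit within 500 bp of a TSS), 489 intron peaks in genes of 30 kb or more, 450 intergenic peaks and 84 exon peaks. The rule used positions and the annotation only, and no measured value.

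The study used ChIP-seq, the sequencing of DNA recovered with a protein by an antibody, to map Oaz in 0 to 24 h old whole embryos of Drosophila melanogaster. The strain was Oaz-GFP, which carries an insertion with Oaz fused to eGFP. There was 1 group of 2 biological replicates, precipitated with an antibody against GFP, so no condition could be compared with another. The material was the whole embryo, so cell types were mixed, and the labels do not say which promoter drove the fusion or whether the resident copies of the gene were intact. The optimal list was made by the authors from both replicates at an irreproducible discovery rate (IDR) of 0.01. The files used give no read counts and hence no depth, and the Wilson 95% intervals cover counting error over peaks only. Peaks are not replicates of a condition. The tests below treat each peak as independent, although peaks in the same gene share their surroundings, and 38 of the 526 overlapped another listed peak.

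Oaz is a protein with many C2H2 zinc fingers, related to the vertebrate factor ZNF423 (also called OAZ), which binds DNA and works with Smad proteins in the response to bone morphogenetic proteins. Introns of fly genes, and first introns in particular, often hold enhancers, which are stretches of DNA that bind transcription factors and act on a start site at a distance. Shorter genes leave less room for such elements than the long developmental genes of the fly. A peak of immunoprecipitated DNA marks where the tagged protein was recovered and does not by itself show that the host gene is controlled by it.

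The sequences under the strongest peaks came in forms with and without the 6-mer ACAGTG. This word had the lowest p of all 6-mers when summits were compared with windows 700 bp to the left. The windows printed reach 100 bp to either side of the summit and were read from the Release 6 genome (dm6) on the strand of the host gene, 5′ to 3′. Capitals mark ACAGTG or its reverse complement CACTGT. The first pair lacks the word and belongs to the strongest peak of the set (CG11050, 2L:6612612-6612812, plus strand) and to the strongest peak in the gene of the GAGA factor (Trl, 3L:14759427-14759627, minus strand).
CG11050: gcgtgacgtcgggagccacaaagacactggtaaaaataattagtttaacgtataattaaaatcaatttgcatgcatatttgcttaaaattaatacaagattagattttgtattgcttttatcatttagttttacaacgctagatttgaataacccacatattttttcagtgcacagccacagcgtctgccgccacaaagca
Trl: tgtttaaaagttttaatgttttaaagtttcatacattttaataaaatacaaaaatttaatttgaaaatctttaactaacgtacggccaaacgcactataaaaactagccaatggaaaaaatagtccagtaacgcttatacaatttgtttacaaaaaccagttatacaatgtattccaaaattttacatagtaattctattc
The next pair holds the word, as did 4 of the 20 strongest peaks found in both replicate lists. The windows lie in CHES-1-like (X:7706874-7707074, minus strand) and Csk (3R:11649559-11649759, minus strand).
CHES-1-like: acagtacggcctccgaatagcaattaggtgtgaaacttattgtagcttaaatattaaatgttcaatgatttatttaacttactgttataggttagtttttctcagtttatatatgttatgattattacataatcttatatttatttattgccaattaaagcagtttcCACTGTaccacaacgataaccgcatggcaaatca
Csk: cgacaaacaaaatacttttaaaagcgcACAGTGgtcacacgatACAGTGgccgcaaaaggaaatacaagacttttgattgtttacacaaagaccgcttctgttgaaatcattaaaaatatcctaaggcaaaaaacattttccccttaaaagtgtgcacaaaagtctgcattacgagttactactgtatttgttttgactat
The word occurs once in the window of CHES-1-like and 2 times in that of Csk, where both copies lie on the strand of the gene near the 5′ edge of the window. The windows are rich in A and T, with a GC content of 34.3% for CG11050, 23.9% for Trl and 29.4% for CHES-1-like.

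The strongest short-gene intron peak was also the strongest of all listed peaks. It lay at 2L:6612545-6612885 in CG11050 (FBgn0031836) and had a signal of 1009 in replicate 1, 828 in replicate 2 and 1849 in the optimal list. Values of the optimal list come from both replicates together and are not comparable in size with those of 1 replicate. Its summit fell in intron 2, which is only 140 bp long, so the peak also covered exon sequence. The signal is the authors' own value for each peak. Its scale is not stated, and it is used here to rank and describe.

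Next in order came a peak at 2R:21703179-21703626 in first introns shared by HmgD and HmgZ, a pair of overlapping genes for HMG-box proteins that bend DNA. Its signals were 766 in replicate 1, 480.2 in replicate 2 and 1266 in the optimal list. CG32772 followed, with a peak at X:4910239-4910492 and signals of 478 and 309. In Trl (FBgn0013263), which encodes the GAGA factor that keeps promoters open, a peak at 3L:14759392-14759661 had signals of 441 and 354. In Adf1, the gene of a transcription factor first found through the alcohol dehydrogenase gene, a peak at 2R:6662938-6663185 had 463 and 313. All of these 5 were higher in replicate 1 than in replicate 2, as were 185 of the 228 members in both replicate lists.

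The 20 strongest peaks present in both replicate lists lay in 21 genes, most of which are named here. Signals ran from 360.3 (CG42258) to 1849 (CG11050) in the optimal list, and 18 of the 20 were higher in replicate 1. The exceptions were CG9663 (308 and 317) and the stronger of the peaks in CHES-1-like (262 and 280.4). Hosts not described above were CHES-1-like (a forkhead transcription factor), wde (a cofactor of a histone H3 lysine methyltransferase; signals 276 and 203) and gce (a receptor for juvenile hormone; 207 and 159). Others were Csk, a kinase that restrains Src (291 and 200.8), and chif with Hyls1 (353 and 277), of which chif encodes the activating subunit of the Cdc7 replication kinase. Further hosts were CG12769, CG3726, CG9837, CG32486 and CG4496, and CHES-1-like and CG42258 are taken up again with the genes that held several peaks. Of the 20 summits, 15 lay in a first intron and 17 within 2000 bp of a TSS, both counted after their values were seen. Over the whole set these shares were 56.1% and 58.6%, and no difference was tested.

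**Figure D1:**
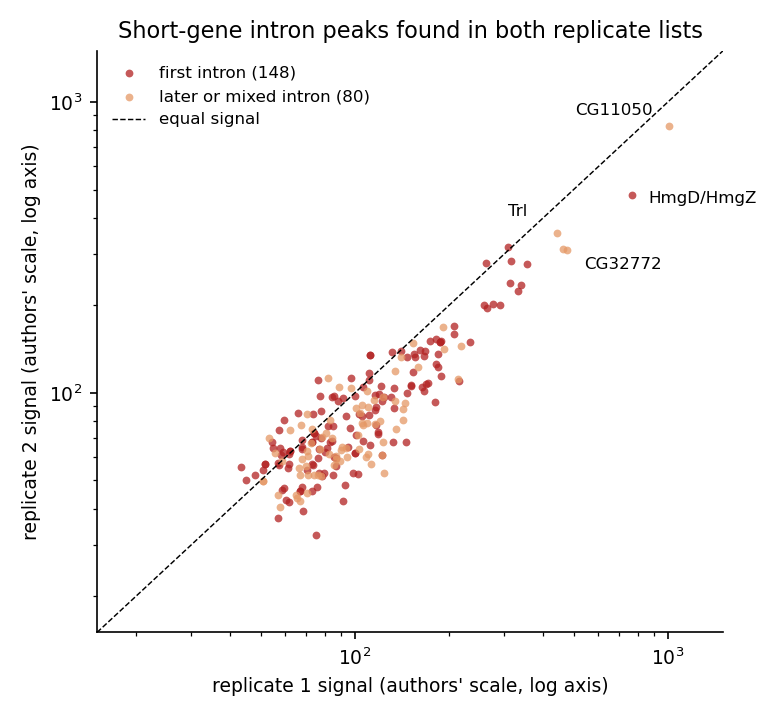
Signal in replicate 2 (vertical, log axis) against replicate 1 (horizontal, log axis) for the 228 short-gene intron peaks found in both replicate lists, on the authors' scale, with first-intron peaks in dark red. Most points (185 of 228) lie below the line of equal signal, and the log2 ratio, replicate 1 over replicate 2, has a median of 0.35.

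A minority of the short-gene intron peaks had been called in each replicate by itself. A peak of both replicate lists overlapped 228 of 526 (43.3%, 39.2 to 47.6), where the share over all arm peaks was 45.5%. A further 69 were in the list of replicate 1 only, 76 in that of replicate 2 only and 153 in neither. In the longer ranked lists of both replicates, which are not cut at an IDR threshold, 511 (97.1%) overlapped a peak. Such overlap was common to the classes, at 96.9% in introns of longer genes, 95.1% between genes and 97.4% at promoters. The optimal list came from the same replicates, so it is not independent support. The authors' conservative list held 444 (84.4%), against 78.5%, 78.2% and 87.7% in the same order. An IDR of 0.001 or less was found for 238 (45.2%), against 35.4%, 34.4% and 56.7%. Peaks in both lists had a median signal of 167, those in 1 list 92.5 and those in neither 73.0.

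Signals of the set spanned a wide range, from 3.31 to 1849 with a median of 101.4 and quartiles of 76.7 and 153. In the peaks shared by both replicate lists the median was 95.7 in replicate 1 and 74.4 in replicate 2. Their log2 ratio had a median of 0.35 and an SD of 0.35 across peaks, so replicate 1 was higher at most peaks. Across these 228 peaks, which are not independent samples and some of which share a replicate peak, Spearman's rho was 0.798, and Pearson's r on log2 values was 0.885. The 17 peaks with a signal under 20 included some next to a much stronger peak. In atos, for example, a peak of signal 6.47 at 2R:11636125-11636454 overlapped one of 138 at 2R:11635924-11636253, and both took the same replicate values of 74.2 and 72.9. Widths were mostly uniform, as 468 of the 526 peaks were listed at 330 bp.

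In the optimal list, short-gene intron peaks lay above the median signal more often than intron peaks of longer genes and intergenic peaks, and less often than promoter peaks. Above the median signal of all arm peaks, which by construction splits the list at 50%, were 256 of 526 (48.7%, 44.4 to 52.9). The share was 40.5% in introns of longer genes (8.18 points lower; adjusted Fisher's exact p 0.0161), 37.8% in intergenic peaks (10.9 points lower; adjusted Fisher's exact p 0.00196) and 60.4% at promoters (11.8 points higher; adjusted Fisher's exact p 2.55e-05). All p values between classes are two-sided and adjusted over 13 tests. The call against longer genes ended in 5 of 9 alternatives. The difference was 5.64 points in the conservative list (adjusted Fisher's exact p 0.133), 11.4 at an IDR of 0.001 or less (adjusted Fisher's exact p 0.0670), 7.30 with a TSS distance of 1000 bp (adjusted Fisher's exact p 0.0642) and 4.07 with a host limit of 50 kb (adjusted Fisher's exact p 0.345). In the list of replicate 2 alone, that is without replicate 1, it was 3.77 points (adjusted Fisher's exact p 0.558), and the difference from intergenic peaks was 1.72 points (adjusted Fisher's exact p 0.812). Among peaks with an IDR of 0.001 or less the difference from intergenic peaks turned to -1.75 points (adjusted Fisher's exact p 0.985), and that from promoters lost its call at -8.98 points (adjusted Fisher's exact p 0.0634).

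The share in both replicate lists was 37.2% in introns of longer genes and 36.9% between genes, against 43.3% in the short-gene introns, and neither difference passed (adjusted Fisher's exact p 0.0562 and 0.0554). At promoters it was 54.4%, which was 11.0 points above the short-gene introns (adjusted Fisher's exact p 7.74e-05). Among peaks with an IDR of 0.001 or less the short-gene introns had the lowest share of these 4 classes, with no call. They differed from promoters by -0.249 points (adjusted Fisher's exact p 0.985), from longer genes by -0.362 points (adjusted Fisher's exact p 1) and from intergenic peaks by -6.18 points (adjusted Fisher's exact p 0.0979). With a host limit of 20 kb both differences away from promoters passed, at 7.94 and 8.59 points (adjusted Fisher's exact p 0.0240 for each).

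**Figure D2:**
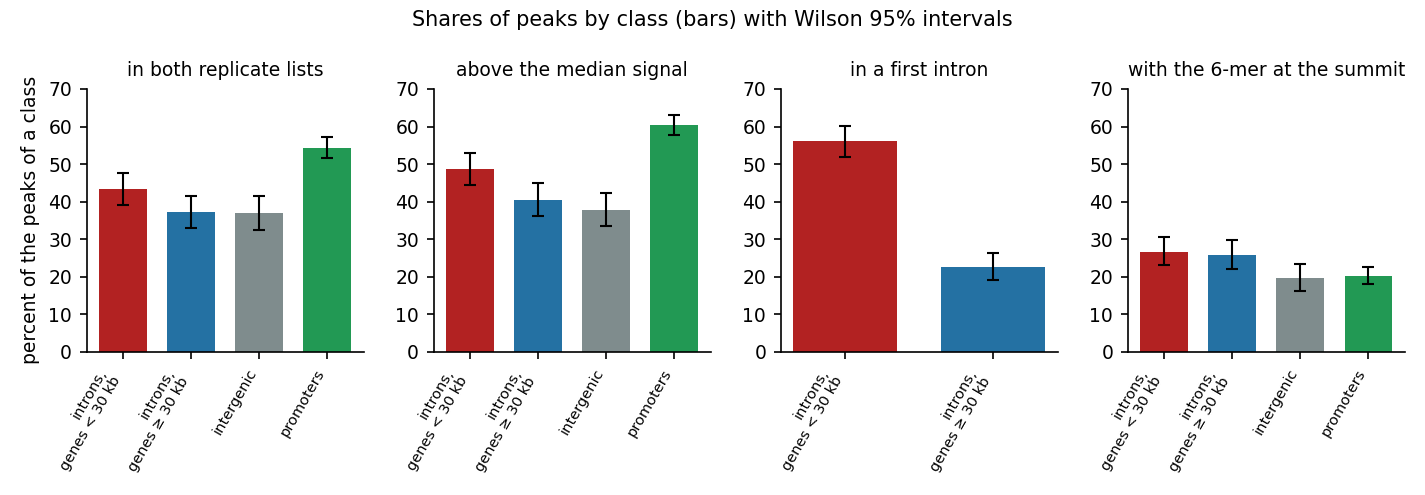
Percent of peaks (vertical) in each class that were in both replicate lists, above the median signal, in a first intron, or that held the 6-mer ACAGTG within 100 bp of the summit, with Wilson 95% intervals as error bars. Short-gene introns (red) lie below promoters (green) in the first pair of panels, and their first-intron share of 56.1% stands above the 22.5% of longer genes.

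First introns held most of the short-gene intron peaks. Of the 526 summits, 295 (56.1%, 51.8 to 60.3) lay in an intron that was intron 1 of at least 1 protein-coding transcript and a later one in none, against 110 of 489 (22.5%, 19.0 to 26.4) in longer genes and 39.9% over both intron classes. The difference of 33.6 points passed the test (adjusted Fisher's exact p 3.53e-27), and it was between 25.6 and 44.4 points with the same call in each of the 10 alternatives run. The classes also differ in what they offer. First introns made up 40.0% of the 17.5 Mb of sequence that the rule admits in short genes, and 18.7% of the 36.1 Mb in longer genes. Per length of sequence, first introns of short genes held 42.2 peaks per Mb and their later or mixed introns 22.0, while the values in longer genes were 16.3 and 12.9.

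Peaks in first introns were also the more reproducible ones by count. Their median signal was 108 against 93.0 in later or mixed introns, and 148 of 295 (50.2%) were in both replicate lists against 80 of 231 (34.6%). These are descriptions within the set, without a test. The strongest peaks of the 2 kinds were those of HmgD/HmgZ in a first intron and CG11050 in a second one. Introns with a peak had a median length of 5153 bp, from 85 to 25634 bp, and 12 peaks lay in introns under 500 bp. The shortest of these introns, of 85 bp, was in CG15861, with a peak of signal 66.6 at 2R:24943847-24944176.

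Short-gene introns were the most densely occupied of the 3 classes away from promoters. They held 30.1 peaks per Mb of admitted sequence, against 13.5 in introns of longer genes and 10.5 between genes. Short genes keep their introns closer to start sites, so the classes were set side by side by distance. From 501 to 1000 bp from the nearest TSS the densities were 54.8, 40.7 and 28.5 peaks per Mb in short-gene introns, long-gene introns and intergenic sequence. From 1001 to 2000 bp they were 39.7, 27.6 and 20.1, and from 2001 to 5000 bp 20.9, 19.0 and 13.6. Beyond 5000 bp they were 19.5, 9.69 and 6.92. Short-gene introns thus had the highest density in each of the 4 distance ranges, and their density was lower in each farther range. The last range has no upper end, so distance is not matched in it. Summits reached 13718 bp from a TSS in short-gene introns, 227824 bp in long-gene introns and 393308 bp between genes. These densities are descriptions, without a test.

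**Figure D3:**
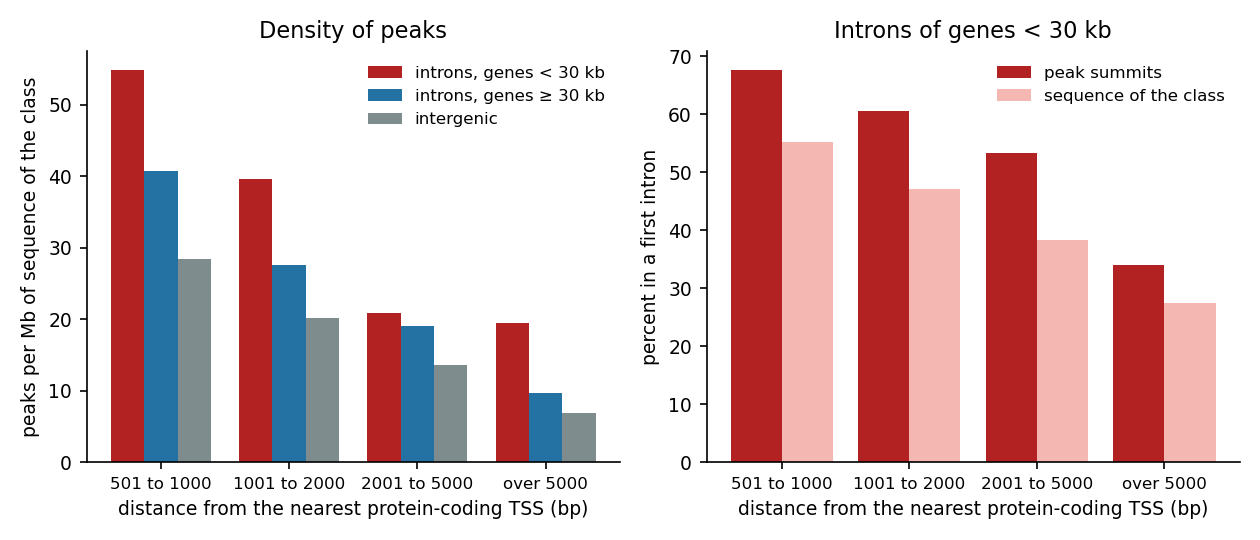
Left, peaks per Mb of sequence (vertical) by distance from the nearest protein-coding TSS (horizontal, bp) in short-gene introns, long-gene introns and intergenic sequence. Right, percent of short-gene intron summits and of short-gene intron sequence in first introns at the same distances, where the peaks lie above the sequence in all 4 ranges (67.5% against 55.2% at 501 to 1000 bp).

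Most of these peaks lay before the midpoint of their longest host. The nearest TSS need not be at the front of the gene. The named CG42258 summit lay 708 bp from a TSS but 8844 bp from the gene's 5′ end. The median distance to the nearest TSS was 1661.5 bp, from 504 to 13718 bp, and 308 of the 526 (58.6%) lay within 2000 bp. The nearest TSS belonged to a host gene in 458 cases (87.1%), against 71.0% in introns of longer genes. In 392 cases (74.5%) the summit lay before the midpoint of its longest host, against 61.3% in longer genes. The share of admitted sequence before the midpoint is not given here. The longest hosts of the set had a median span of 15207.5 bp. At 501 to 1000 bp, 67.5% of summits and 55.2% of the admitted sequence lay in first introns, and beyond 5000 bp the shares were 34.0% and 27.5%. Few start sites of other kinds were close: 11 summits (2.09%, 1.17 to 3.71) lay within 500 bp of the TSS of a noncoding gene, against 4.33% of all arm peaks. In introns of longer genes the share was much the same, at 2.66% (a difference of -0.567 points; adjusted Fisher's exact p 0.737). The share was 9.56% for intergenic peaks (a difference of -7.46 points; adjusted Fisher's exact p 2.25e-06) and 4.25% for promoter peaks (-2.16 points; adjusted Fisher's exact p 0.0365). How much sequence of each class lies that near a noncoding start is not given here, so these differences are not set against it. The call against promoters ended in 8 of 10 alternatives, with a difference of -1.39 points without replicate 1 and -1.35 points without replicate 2 (adjusted Fisher's exact p 0.539 and 0.465). The 11 included gce, where an antisense RNA starts 249 bp from the summit, and Dif, a Toll pathway transcription factor, where a lncRNA starts 474 bp away.

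The 526 peaks were spread over 419 host genes, which were 5.05% of the 8295 genes under 30 kb with any admitted intron sequence. A single peak was the rule, with 333 hosts. Another 61 held 2 and 25 held 3 or more, and 30 peaks lay in more than 1 host. Hosts had far more intron sequence than other short genes, with a median of 7380 bp admitted by the rule against 395 bp over all 8295. Each promoter peak was assigned to 1 gene, that of its nearest TSS, and 81 hosts (19.3%) had such a peak. The other 338 had none assigned to them. A peak at a start shared with another gene may count for that gene only, as with bbx and waw, which have the same span.

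CHES-1-like and L held the most peaks, 8 each. CHES-1-like (FBgn0029504) spans X:7682338-7709385 on the minus strand, and all 8 summits lay in first introns of its transcripts. The strongest lay 2411 bp from the gene's 5′ end, with the signals given above, and the next at X:7698319-7698501, 10954 bp from it, with 207 and 169.8 in replicates 1 and 2. A peak at X:7700344-7700485 had 180.0 and 93.2. The other 5 had optimal-list signals from 86.1 to 117, and 4 of the 8 were in both replicate lists. The word ACAGTG was in the windows of 4 of the 8.

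L (FBgn0288433, 2R:14435899-14465881, plus strand) is the gene listed under Oaz as a synonym, and at 29983 bp it is the longest host that the 30 kb limit admits. Its 8 peaks were weak: the optimal-list signals ran from 31.2 to 195 with a median of 73.6, and 1 of the 8 was in both replicate lists. That one, at 2R:14437575-14437904 in intron 1, was higher in replicate 2 (111) than in replicate 1 (76.0). The flies carry an insertion with an Oaz fusion, and the number of copies of the locus in them was not tested. The gene PRAS40, which encodes an inhibitor of the TORC1 growth kinase, lies downstream on the same strand at 2R:14481187-14497312 and held 6 peaks in its first intron. The strongest of these, at 2R:14484522-14484851, had near-equal signals of 140.2 and 139.7, and 3 of the 6 were in both replicate lists.

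In all, 25 hosts held 3 or more peaks. Beside the 3 above, simj, whose product is a subunit of the NuRD nucleosome remodelling and deacetylase complex, had 6 peaks, 4 of them in both replicate lists. Its strongest, at 3L:10682856-10682952, had signals of 192 and 141, and the next, at 3L:10678614-10678943, had 159 and 123. Gug, which encodes the corepressor Atrophin, had 3, led by a peak at 3L:8458248-8458418 with 218 and 144. Trl had 3 as well, and its other pair had optimal-list signals of 158 and 71.1. Tis11, an RNA-binding protein that promotes mRNA decay, had 4 with a highest signal of 209, and chn, a zinc-finger repressor of neural genes, had 4 with a highest of 121. Kank and atos held 5 each, and the highest signals were 234 and 186. The remaining hosts with 3 or more were CG42258, CG9328, CG14434 and Evi5 with 4 each, and Irk1 with the overlapping CG46310, drongo, CG10543, babos, cv-2, Gclc, Paip2, puc, Socs36E and Grip with 3 each.

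**Figure D4:**
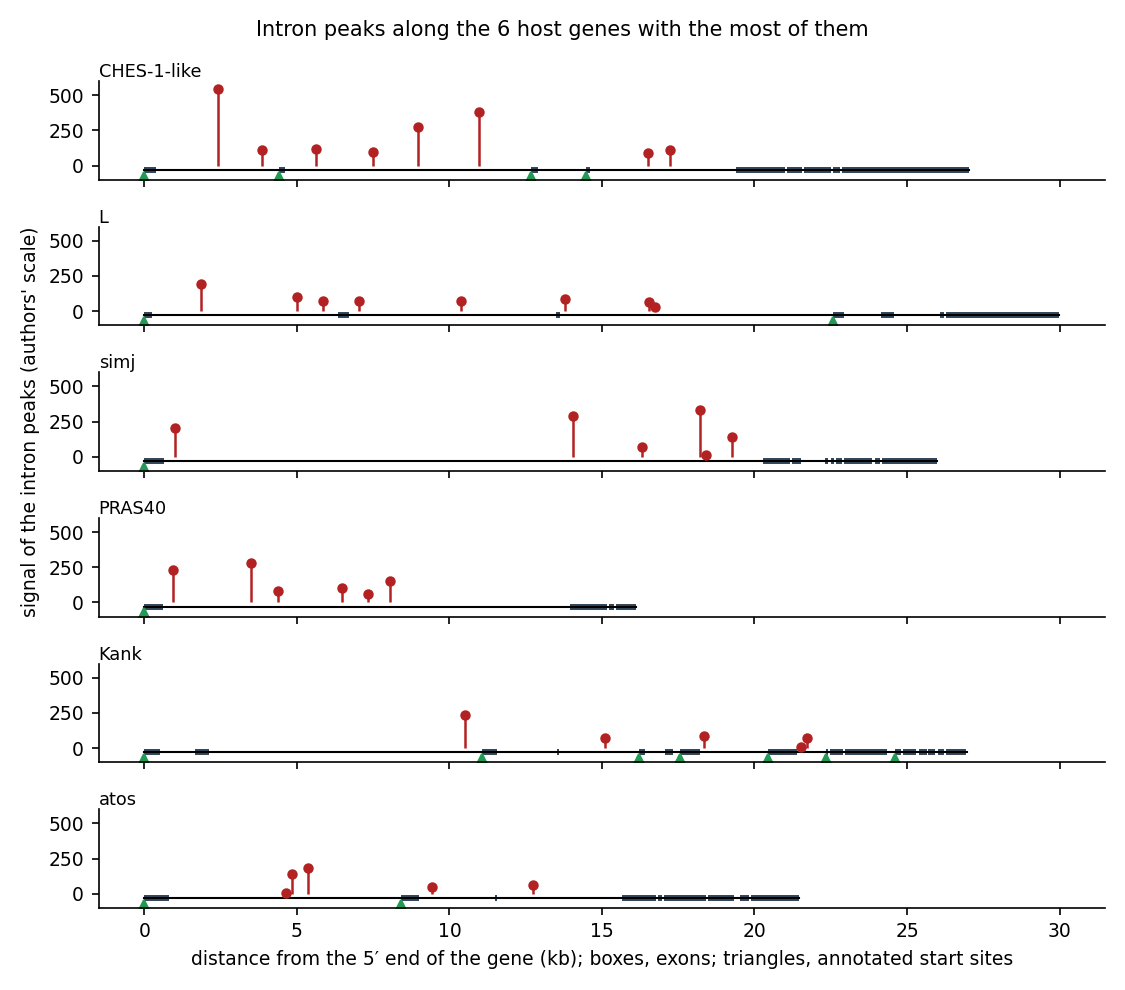
Intron peaks along the 6 short genes that held the most, with the distance from the gene's 5′ end in kb (horizontal) and the optimal-list signal on the authors' scale (vertical). Boxes are exons and triangles annotated start sites of protein-coding transcripts. CHES-1-like has 8 peaks up to 541, and L has 8 peaks of at most 195.

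Signalling pathways were represented among the hosts by a few genes each. The 21 gene lists held 287 genes under 30 kb with admitted intron sequence, of which 38 (13.2%) were hosts against 5.05% of all such genes. Listed genes also had more room, with a median of 1281 bp admitted per gene, and per Mb they held 46.9 of these peaks against 30.1 in the class. The lists were chosen with earlier results of these data known, so the higher share and density are not independent findings about such genes. No list was tested, and nothing is read from one as particular to it. A host is named here because it holds a peak, not because its expression was measured.

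In the Dpp/BMP pathway, in which a secreted ligand acts through receptors and Smad proteins, 4 of 14 genes were hosts. The receptor gene wit had the strongest peak, at 3L:4070548-4070675 in its first intron, with 163 and 105 in replicates 1 and 2. Mad, the Smad that carries the signal to the nucleus, had 106 and 68.2 at 2L:3153211-3153540. Dad, the inhibitory Smad, had 86.9 and 60.7 in intron 4 at 3R:17064932-17065261. All 3 were in both lists and higher in replicate 1, the direction of 185 of the 228 short-gene intron peaks in both lists. cv-2, an extracellular protein that binds BMP ligands, held 3 peaks of optimal-list signals from 84.9 to 117, none of them in both replicate lists.

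In the EGFR pathway 4 of 12 genes were hosts. edl, which blocks ETS factors by binding them, had the strongest peak, at 2R:18671644-18671826 in its first intron, with 189 and 151. drk, the adaptor between receptor and Ras, had 134 and 93.7. aop, the ETS repressor also called Yan, had 91.2 and 65.0. sty, the inhibitor Sprouty, had 2 peaks, the stronger with 76.9 and 53.1. All 4 strongest peaks were in both lists and higher in replicate 1, as were 185 of the 228 short-gene intron peaks in both lists.

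Growth control genes of the Hippo list were hosts in 6 of 21 cases, with weaker peaks. ex and kibra, which act upstream of the kinase cascade, had 70.97 and 52.3, and 68.4 and 39.2, in the 2 replicates. Myc, the growth-promoting transcription factor, had its stronger peak in the list of replicate 1 only (76.7) and wts, the kinase that restrains Yorkie, in that of replicate 2 only (47.1). Hosts were 4 of 23 Polycomb and Trithorax genes, 4 of 16 genes of the trachea and posterior spiracle, and 3 of 15 of apoptosis and stress response. Beside Trl, the first of these lists held Psc (97.3 and 104), a subunit of Polycomb repressive complex 1, and ph-p (83.4 and 80.4), another subunit of it, whose intron peak lay apart from its stronger promoter peak. trx, the histone methyltransferase of the Trithorax group, was in the list of replicate 1 only (65.2). The tracheal and spiracle hosts were sty, Cad96Ca, rib and crb, of which Cad96Ca had 58.5 and 46.5. Diap1, which blocks caspases, had 97.3 and 113, and the others of its list were puc and kay.

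The other lists held 3 hosts or fewer. RNA binding and splicing had 3 of 21 (pAbp, Sxl and elav), and JAK/STAT (Stat92E and Socs36E, 2 of 9), Wnt (arr and Wnt4, 2 of 13) and the neuroblast list (insc and elav, 2 of 12) followed. A single host stood in each of the Notch (neur, 1 of 12), Hedgehog (ptc, 1 of 9), Toll (Dif, 1 of 14), muscle (tsr, 1 of 17), cell cycle (Cdk4, 1 of 20) and heat shock (Hsp83, 1 of 10) lists. Stat92E, the transcription factor of its pathway, had 73.1 and 68.0, and Hsp83, the fly Hsp90, had 133 and 88.5. The first-intron peak of neur, an E3 ubiquitin ligase that promotes Delta endocytosis, had 122 and 61.3. No host was found among 27 embryonic patterning transcription factors (upper limit 11.1%), 10 insulator proteins (upper limit 30%), 10 nuclear receptors (upper limit 30%), 9 axon guidance genes (upper limit 33.3%) and 4 Hox genes (upper limit 75%). These limits take 3 genes in place of 0, cover counting error only and apply to genes under 30 kb, since longer members of these lists cannot be hosts under the rule.

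The sequence under the summits was poorer in G and C than its surroundings and held ACAGTG more often. Median GC content was 35.3% in the window of 100 bp to either side of the summit, against 40.8% and 40.3% in windows 700 bp to the left and right. At summits in introns of longer genes it was 35.8%, against 39.8% in both flanks. Flank windows were not confined to introns, and short-gene summits lay a median of 993.5 bp from the nearer end of their intron. Some flanks can thus hold exon or promoter sequence, and its part in the ratios below was not tested. ACAGTG, searched on both strands, was in 140 of 526 summit windows (26.6%, 23.0 to 30.6) and in 48 of the left flanks (9.13%). The ratio was 2.88-fold (adjusted exact McNemar p 1.62e-11 over 29 motifs), and the log2 fold stayed between 1.00 and 1.57 in the 11 alternatives, all of them called. Over all arm peaks the share was 22.2%. The word was known from earlier results on the whole list, so its presence here is not independent evidence.

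Of the 29 motifs searched on both strands, 2 were higher at summits (6.90%) and 1 was lower (3.45%). Beside ACAGTG, the TATA box (TATAAA) was higher, in 36.5% of summit windows against 23.6% of left flanks (1.54-fold, adjusted exact McNemar p 0.000164). Its letters are all A and T, as are those of 24 of the 81 6-mers named as higher below, and the lower GC content of the windows moves with them. A part of base composition in this result was not tested. The TATA box call ended in 2 of 11 alternatives. These were a TSS distance of 1000 bp (log2 fold 0.46, adjusted exact McNemar p 0.0685) and an IDR of 0.001 or less (log2 fold 0.62, adjusted exact McNemar p 0.0573). The CA repeat CACACACA was lower, in 3.61% against 8.56% (0.435-fold, adjusted exact McNemar p 0.0126). That call ended in 4 of 11 alternatives, among them the list of replicate 1 alone, that is without replicate 2 (log2 fold -0.72, adjusted exact McNemar p 0.727). The sites tied to Oaz through its relatives and partners were not called. GCACCC, described for vertebrate OAZ, was in 3.80% against 4.18% (0.913-fold, adjusted exact McNemar p 1). The Smad motifs GTCTAG (2.66% against 2.47%) and GGCGCC (1.90% against 1.71%) had an adjusted exact McNemar p of 1 as well.

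Among all 2080 6-mers, counted with their reverse complements, 81 (3.89%) were higher at summits and 33 (1.59%) lower. ACAGTG had the lowest p of all (adjusted exact McNemar p 1.16e-09). Of the 81, 9 were ACAGTG moved by 1 or 2 letters, so they can count some of the same sites again. They also count other sites. CAGTGC was in 100 summit windows, while 25 of the 169 copies of ACAGTG at summits were followed by C. The 5 highest by ratio were AGGTAC (3.38-fold, 4.94% against 1.33%), CTATGA (3.15-fold, 7.60% against 2.28%), ATACCC (3.09-fold, 13.3% against 4.18%), CTGTAC (3.0-fold, 12.4% against 3.99%) and ACAGTG itself. CTGTAC is among the moved forms. In the right flank ATACCC was in 8.17% of windows and CTATGA in 5.70%, so their ratio was smaller there. The lower 6-mers were rich in G and C, led by CGCGCG (0.380% against 3.04%). The number of calls was 43 in the list of replicate 2 alone and 30 in that of replicate 1 alone, against 114 in the optimal list.

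**Figure D5:**
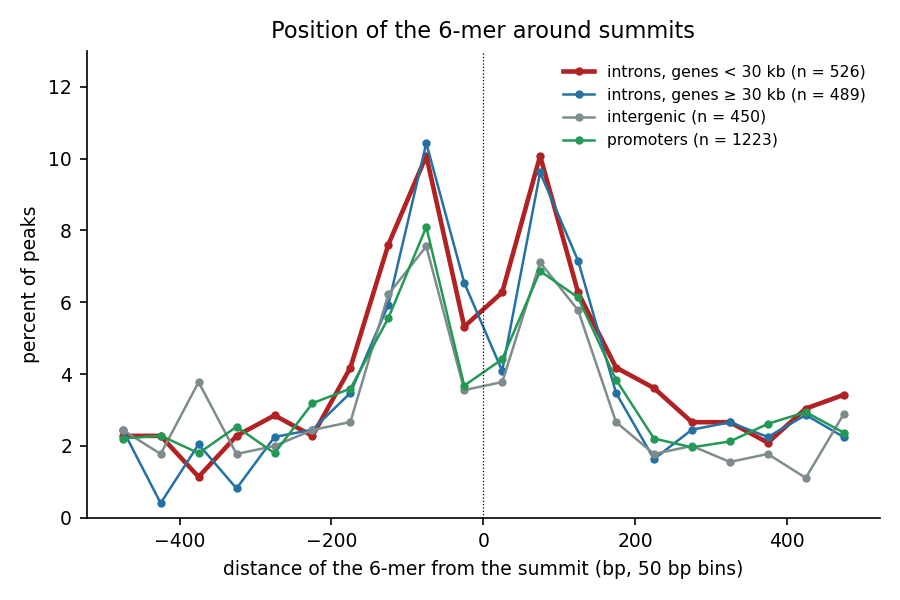
Percent of peaks (vertical) with the 6-mer ACAGTG in each 50 bp bin by its distance from the summit (horizontal, bp), for 4 classes of peaks. In short-gene introns (thick red line) the share is 10.1% at 50 to 100 bp on either side and lower at the summit itself (5.32% and 6.27%). The other classes have the same dip.

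ACAGTG lay beside the summits more than on them. The 169 occurrences in the 140 windows had a median distance of 59.5 bp from the summit, and 21 (12.4%) were within 25 bp. By 50 bp bins, 10.1% of peaks had the word at 50 to 100 bp on either side, against 5.32% and 6.27% within 50 bp and 1.14% to 3.42% beyond 300 bp. Copies lay on both strands about equally, with 89 of 169 (52.7%) on the strand of the longest host, and 26 peaks had 2 or more copies. The base after the word was G in 54.4% of copies at summits and 36.9% of the 111 copies in flanks, and the base 2 before it was G in 47.9% and 27.0%.

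The word did not mark the strongest of these peaks. Among the 20 strongest in both lists it was in 4, and the 11 strongest all lacked it within 100 bp of the summit. Peaks with and without it had median signals of 105 and 101.1, and 47.1% and 42.0% of them were in both replicate lists. By arm, the share with the word ran from 17.8% on 3L to 33.9% on X. Between classes, the share of 26.6% stood above the 20.2% of promoter peaks (6.42 points; adjusted Fisher's exact p 0.00827) and the 19.6% of intergenic peaks (7.06 points; adjusted Fisher's exact p 0.0161). It differed from the 25.8% in longer genes by 0.849 points (adjusted Fisher's exact p 0.775). The difference from promoters was called in each of the 10 alternatives. That from intergenic peaks lost its call in 4 of 10 alternatives. It was 5.53 points without replicate 1 (adjusted Fisher's exact p 0.277) and 4.84 points without replicate 2 (adjusted Fisher's exact p 0.297). In the conservative list it was 5.18 points (adjusted Fisher's exact p 0.127), and at an IDR of 0.001 or less 1.02 points (adjusted Fisher's exact p 0.985).

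Of the motifs searched, 3 were less frequent in short-gene introns than at promoter peaks. After the shares of motifs had been seen, the 29 motifs were compared with each of the 3 other classes, and 3 of the 87 tests passed (3.45%), all of them lower than at promoters. TATCGATA, the DNA replication-related element, stood in 0.190% of windows, 1 of 526, against 5.89% (5.70 points; adjusted Fisher's exact p 9.31e-09). The Beaf-32 site TCGATA, which is contained in that element, was in 8.17% against 18.9% (10.7 points; adjusted Fisher's exact p 1.95e-07). The M1BP site GGTCACACT was in 0 of 526, which allows a share of up to 0.570%, against 2.21% (adjusted Fisher's exact p 0.00216). With longer-gene introns or intergenic peaks no motif differed past the threshold in these 87 tests, and ACAGTG did not pass against promoters. Other words of core promoters, the TATA box (36.5% against 37.9% at promoters) and the initiator TCAGTT (14.8% against 11.9%), were not called. A word that is not in a window says nothing of the factor itself.

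The limits of the set cut through a continuous range of genes and distances. The longest hosts admitted were L (29983 bp), Pli (29891 bp) and Mnt (29872 bp), with signals of 195, 67.5 and 85.4 for the peaks nearest the limit. The shortest genes left out were sog (30152 bp), capu (30215 bp) and Mhcl (30239 bp), with 124, 134 and 73.1. At the distance limit, intron peaks of CG10543, pAbp and ACC lay 504, 506 and 507 bp from a TSS, with signals of 146, 184 and 79.0. Peaks of ph-p, Mtp and jar lay 498, 486 and 483 bp away and count as promoter peaks, with 1133, 114.5 and 111.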

How the data were processed

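Chromatin immunoprecipitation was done by the authors on whole Oaz-GFP embryos, 2 biological replicates, sheared by sonication (200 to 800 bp), per the labels, which call the antibody Oaz in one place and anti-GFP in another. Not given in the sources used here are the aligner, the peak caller and its settings. The deposited descriptions say that joint lists came from both replicates with a control, and the replicate lists from 1 replicate with a control, on dm6. Each peak has a deposited signal value on a scale that is not stated, and signals were used as deposited. The ranked lists also hold the deposited −log10 of the global IDR. Control reads and 8 per-library columns of the ranked lists were not used here.

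The members and lists were chosen with earlier results of these data known, and so were the motifs, among them ACAGTG. Genes, TSSs (19275 positions on the arms) and introns came from Ensembl release 115, and sequence from genome Release 6, where 0 listed arm peaks ran past an arm end. Gene symbols were matched by name or synonym, and 5 of 481 were not matched. Coordinates are 1-based on dm6. A peak was in a replicate list when they overlapped by 1 bp or more. Classes were compared by two-sided Fisher's exact tests (13), and motifs (29) and 6-mers (2080) by a two-sided exact McNemar test of the window of 100 bp to either side of the summit against the one 700 bp to the left. To each fold's numerator and denominator 1 window was added. The p values were adjusted by the Benjamini-Hochberg method within each family, and the threshold was 0.05. The comparison of motifs between classes (87 tests), the position and sequence context of ACAGTG and the densities by distance were added after values had been seen. The test code was checked on simulated data. Named were the 20 strongest members in both replicate lists, hosts with 3 or more members, up to 4 hosts of each of 21 gene lists, up to 3 motifs in each direction and the 5 highest 6-mers. Results on some of these genes are not reported here. Alternatives varied the list of peaks, the IDR threshold, the TSS distance, the host span, overlapping peaks, the overlap, the window, the flank and the definitions of a first intron and of nearness to a noncoding start. Scripts ran in Python 3.11.15 with pandas 2.3.3, scipy 1.17.1, numpy 2.4.6 and, for figures, matplotlib 3.10.9.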

Additional observations from a re-analysis of the deposited data

How the results depend on the processing

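Differences between classes are given here in percentage points, short-gene introns minus the other class. The first-intron difference and the noncoding difference from intergenic peaks kept direction and call in all 10 alternatives each, as did the ACAGTG difference from promoters. The number of short-gene intron peaks was 238 at an IDR of 0.001 or less and 308 to 332 in the lists of single replicates. The replicate-list share against promoters, longer genes and intergenic peaks was -0.249, -0.362 and -6.18 at that IDR, and with a host limit of 20 kb it passed against longer genes (7.94) and intergenic peaks (8.59). The share above the median signal against longer genes lost its call in the conservative list (5.64), at the IDR of 0.001 (11.4), with a TSS distance of 1000 bp (7.30), with a host limit of 50 kb (4.07) and without replicate 1 (3.77, and 11.7 without replicate 2, which was called). Against intergenic peaks it was 1.72 without replicate 1, 10.5 without replicate 2 and -1.75 at the IDR of 0.001, and against promoters -8.98 there. ACAGTG against longer genes turned in the conservative list (-1.60), at the IDR of 0.001 (-1.22), and without each replicate in turn (-2.73 and -0.950). Against intergenic peaks it was 5.18, 1.02, and 4.84 to 5.53 in the same order, with the call lost each time. The noncoding difference from promoters lost its call in the conservative list (-2.08), at the IDR of 0.001 (-0.961), at 1000 bp (-1.56), at 50 kb (-1.89), with only the strongest of overlapping peaks (-2.09), within 250 bp of a noncoding start (-1.09) and without each replicate (-1.39 and -1.35). Motif calls numbered 1 at the IDR of 0.001 and 5 with a TSS distance of 250 bp, against 3. The 6-mer calls, 5.48% of the 2080 tested in the optimal list, were 0.673% at the IDR of 0.001, 9.66% at 250 bp, 1.83% at 1000 bp, 2.74% at 20 kb, 3.32% with windows of 50 bp to either side, and 1.44% to 2.07% in single replicates. Shorter lists hold fewer windows to test. The cause of the other changes was not tested. No paired analysis was possible because there was 1 group and no groups were compared. Precision is limited by the number of peaks in each class, and the depth of sequencing is unknown.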
